A study of Mus musculus with 12 samples.

Results

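The genes described here encode the nuclear-encoded subunits of the mitochondrial respiratory chain and the ATP synthase, together with relatives that share their gene symbols. They were chosen by name alone, as symbols beginning with Nduf followed by a, b, c, s or v, with Sdha to Sdhd, with Uqcr, with Cox4 to Cox8 or with Atp5. Of 31253 gene symbols listed, 94 had such a name, and 89 of these were above 1 TPM in at least 3 of 12 libraries and are called the members below. TPM is a transcript's estimated reads divided by its length and scaled to a fixed library total, so levels can be compared between genes. The same filter left 12120 genes, over which each test was run.

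The libraries were made from the livers of male C57BL6 mice, 3 in each of 4 groups. Wild-type (WT) mice and mice with a knock-in S302A change in CUGBP1, an RNA-binding protein also named CELF1, were either untreated (WT_Ctrl and S302A_Ctrl) or given diethylnitrosamine (WT_DEN and S302A_DEN). Diethylnitrosamine (DEN) is a carcinogen that liver cells activate, and per the labels it was injected at 50 µg/g bodyweight at 3 weeks of age. Per the labels the animals were 33 to 41 weeks old at sacrifice in all groups, with livers taken 30 to 38 weeks after DEN. The labels do not state the zygosity of the knock-in, a vehicle for the untreated mice, whether tumour or non-tumour tissue was taken, or how many animals went into a sample. Since nothing in them says that each library came from a separate animal, the p-values measure the spread between these libraries. A gene-level TPM cannot show an amino acid change, so the genotype labels were not checked here.

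The respiratory chain passes electrons from NADH and succinate to oxygen and uses the energy to move protons across the inner mitochondrial membrane. Complex I (NADH dehydrogenase) and complex II (succinate dehydrogenase) feed electrons to coenzyme Q, complex III (the cytochrome bc1 complex) hands them to cytochrome c, and complex IV (cytochrome c oxidase) reduces oxygen. Complex V, the ATP synthase, lets the protons back and makes ATP. Complex II is made wholly from nuclear genes, while the other complexes also hold subunits made from mitochondrial DNA, which were not analysed here. Hepatocytes are rich in mitochondria and use this chain to power gluconeogenesis, urea synthesis and fat oxidation.

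By complex, the members were 43 genes of complex I, 6 of complex II, 8 of complex III, 15 of complex IV and 17 of complex V. Complex I comprised 7 catalytic core subunits, 29 accessory subunits and 7 assembly factors whose symbols begin with Ndufaf. Complex II comprised its 4 subunits and the assembly factors Sdhaf1 and Sdhaf2. Ndufa4, which was named as a complex I gene but belongs to cytochrome c oxidase, was counted in complex IV. Complex V included Atp5s and Atp5sl, whose names match but which are not standard ATP synthase subunits. The 5 symbols outside were Cox4i2, Cox6a2, Cox7b2, Cox8b and Cox8c, isoforms known from lung, muscle, heart or germ cells, and each was listed at 1 TPM, the lowest value in the files, in all 12 libraries. Just inside the threshold was Ndufa4l2, a hypoxia-induced relative of Ndufa4, which was above 1 TPM in 9 libraries and reached 4.09 TPM, and 88 of the 89 members were above 1 TPM in all 12.

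Nuclear control of these genes is known to run through a few transcription factors, among them NRF1, the ETS factor GABPA (NRF2), YY1 and the estrogen-related receptors (ERR). The promoters are shown as sequence, and a link between them and the levels in these libraries was not tested. RefSeq promoters of GRCm38.p6, which run from 250 bases before to 50 after the transcription start, were matched for 76 of the 89 members, 3 of them by a synonym, and were searched on both strands. The NRF1 motif CGCATGCG, a palindrome, was in 11 of the 76 members (14.5%), against 2.07% of all 27025 genes and 4.57% of the 8560 tested genes with a promoter. The YY1 motif AAGATGGCG was in 8 members (10.5%), against 3.79% of tested genes. The ERR motif CAAGGTCA was in 4 members (5.26%), against 1.36% of tested genes. The ETS motif CCGGAAGT was in 5 members (6.58%), against 9.47% of tested genes. None of the 4 motifs contains another, and 25 of the 76 members held at least 1 of them. A match of letters is a description of the sequence and does not show that the factor binds there. The stretches below lie before the RefSeq start and are written 5′ to 3′ on the gene's own strand, with the motif or its reverse complement in capitals: the NRF1 motif of Cox6a1, which is among the members with the smallest p for DEN in WT livers (chr5:115349086-115349145, minus strand), and of Ndufa11, the complex I subunit with the lowest level apart from the assembly factors (chr17:56717677-56717736, plus strand), the ETS motif of Uqcr11 (chr10:80406854-80406913, minus strand), and the ERR motif of Atp5g3, the most abundant complex V gene (chr2:73911345-73911404, minus strand), and of Ndufs5, the member that varied most (chr4:123718381-123718436, minus strand).
Cox6a1: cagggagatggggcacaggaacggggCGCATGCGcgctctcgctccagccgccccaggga
Ndufa11: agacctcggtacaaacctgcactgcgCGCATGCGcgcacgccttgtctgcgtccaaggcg
Uqcr11: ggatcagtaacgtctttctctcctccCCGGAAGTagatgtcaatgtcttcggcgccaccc
Atp5g3: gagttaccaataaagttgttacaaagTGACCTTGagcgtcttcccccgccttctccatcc
Ndufs5: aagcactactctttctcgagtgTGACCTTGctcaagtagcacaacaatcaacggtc

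The members were among the most abundant transcripts of these livers. Their median level, as the mean TPM over 12 libraries, was 206 TPM, against 7.31 TPM over all tested genes, and 85 of 89 members were above that latter value. A mean above 100 TPM was reached by 70 of 89 members and by 912 of 12120 tested genes. Summed, they took between 1.92% and 3.42% of the nominal total of 1000000 TPM in each library.

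Levels differed between complexes. Complex I ranged from Ndufa11 at 21.9 TPM to Ndufa6 at 430.3 TPM among its subunits, with a median of 181.7 TPM, and complex II from Sdha at 140.4 TPM to Sdhb at 263.5 TPM, with a median of 147 TPM. Complex III ran from the core protein Uqcrc1 at 152 TPM to the small subunit Uqcrq at 987 TPM. The highest member of all was Ndufa4 at 1143 TPM, in complex IV, where the median was 430.8 TPM and Ndufa4l2 was lowest at 1.58 TPM. In complex V, Atp5f1 was lowest among subunits at 215 TPM and Atp5g3 highest at 754 TPM. The 9 assembly factors, which help build the complexes without staying in them, were the low group, from Ndufaf5 at 2.52 TPM to Ndufaf1 at 29.7 TPM.

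**Figure D1:**
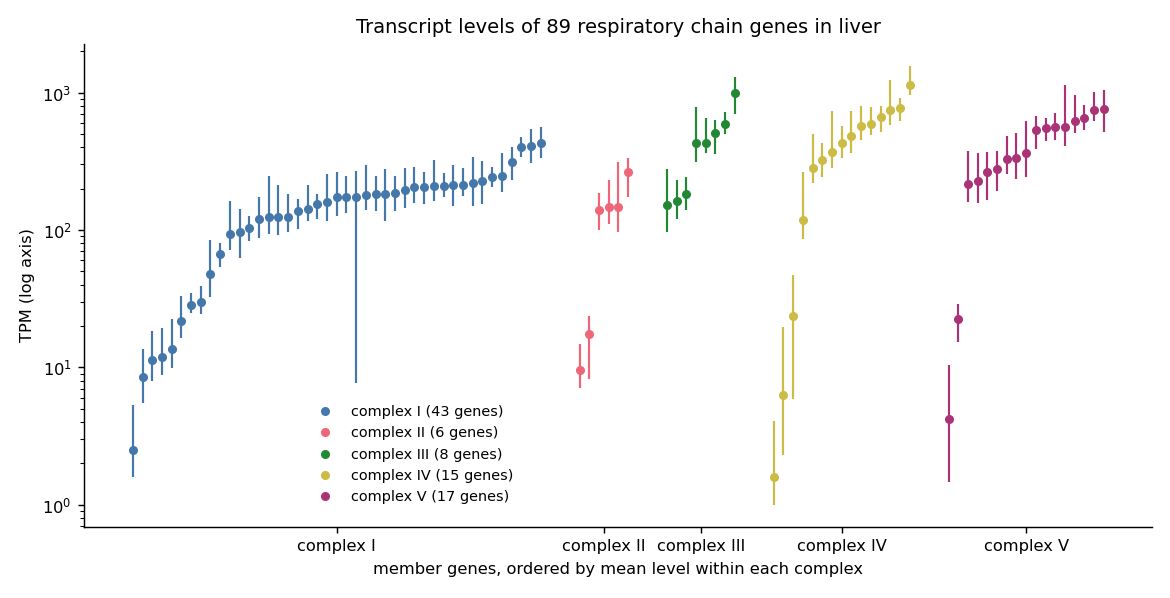
Mean TPM over 12 libraries (points) and the range from lowest to highest library (lines) for each of the 89 members, ordered within each complex, on a log axis. Ndufa4 of complex IV is highest at 1143 TPM, and 1 complex I gene, Ndufs5, reaches down to 7.71 TPM in a single library.

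Within subunits that come in isoforms, the liver libraries carried mainly the ubiquitous form. Cox7a1, the heart and muscle form, made up 1.00% to 3.79% of Cox7a1 and Cox7a2 together. Cox6b2, known as the testis form of a subunit that holds the oxidase dimer together, made up 1.03% to 6.81% of Cox6b1 and Cox6b2 together. The c ring, which turns as protons pass, is built from identical proteins made by 3 genes, and Atp5g3 supplied 53.7% to 64.8% of their summed TPM. Atp5g2 supplied 20.4% to 21.5% in the S302A_DEN libraries and 15.8% to 18.4% in the other 9, so that these ranges did not overlap. This share was singled out after its values were seen and was not tested.

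Before the comparisons, 1 library has to be set apart. S302A_DEN replicate 3 had a summed member level of 34217 TPM, where the other 11 libraries ran from 19203 to 28224 TPM. It was the highest of the 12 libraries for 75 of 89 members (84.3%) and for 70.8% of all tested genes, so the shift was not limited to the members. The median member was 0.71 higher there than in the mean of the other two S302A_DEN libraries, as a difference in log2(TPM + 1), and the median of all tested genes was 0.79 higher. The same library had the highest sums of 8 macrophage markers (522 TPM, against 73.6 to 207 TPM in the other 11), and of 8 stellate cell markers (231 TPM, against 34.6 to 86.4 TPM). It was not highest for sinusoidal endothelial markers (66.7 TPM, against up to 67.0 TPM in the others) or neutrophil markers (19.9 against up to 20.3 TPM). Nor was it highest for erythroid markers (776 against up to 3866 TPM). Of 6 cholangiocyte markers, Krt7 and Cftr were listed at 1 throughout, and only 2 of the 6 were above 1 TPM in at least 3 libraries. Their sum set the whole S302A_DEN group apart, at 61.7 to 141 TPM with replicate 3 highest. It was at most 37.7 TPM in each library of the other groups. In replicate 3 the sum of 10 hepatocyte markers was 65360 TPM, near the low end of the other libraries (63810 to 122000 TPM). The part of these cells in the member levels was not tested. The 10 hepatocyte markers were listed above 1 in at least 3 libraries each, and 5 of 5 adipocyte markers were listed at 1. In bulk tissue, fewer cells of a type and less RNA per cell cannot be told apart. The main counts and medians of the comparisons that use S302A_DEN, and the differences tested for named members, are given with and without this library.

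**Figure D2:**
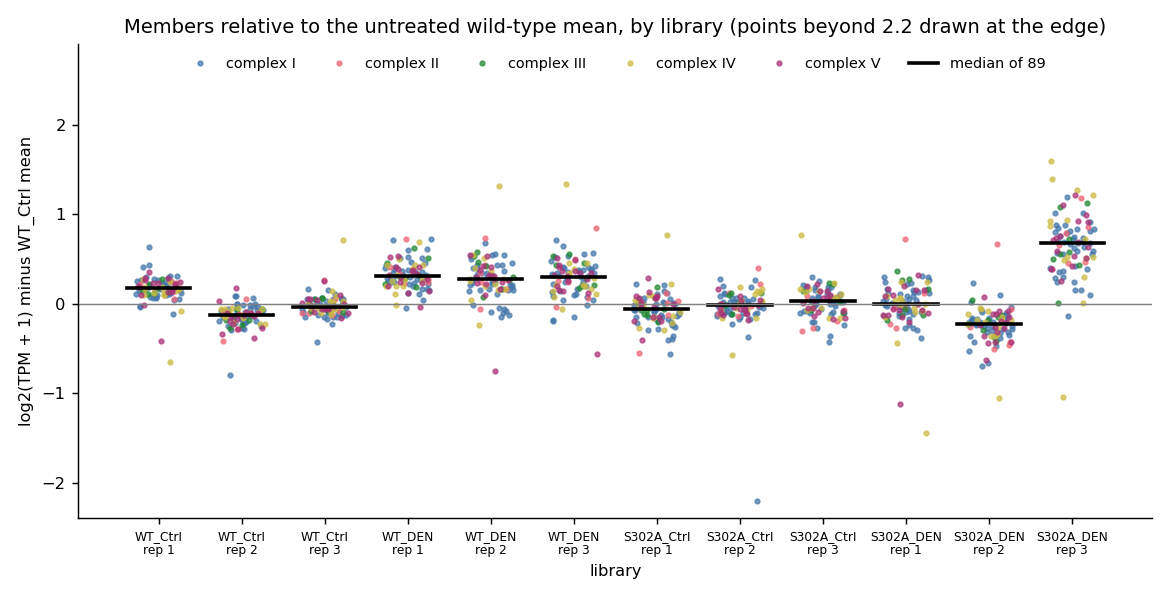
Difference of each member from its WT_Ctrl mean in log2(TPM + 1), by library, coloured by complex, with the median of the 89 members as a bar. The WT_DEN libraries sit above 0 together, and S302A_DEN replicate 3 sits above its fellow replicates, while Ndufs5 is the low point in S302A_Ctrl replicate 2.

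In TPM as deposited, nearly all members were higher in WT livers after DEN, a count of 85 of 89 that was 47 of 89 when the libraries were quantile-normalized. The summed TPM was 25507, 20297 and 21956 in the 3 WT_Ctrl libraries and 28224, 27788 and 27645 in the 3 WT_DEN libraries. The groups did not overlap, with means of 22587 ± 2662 and 27886 ± 301.6 TPM (SD, n = 3 each). Of 89 members, 85 were higher after DEN and 4 lower, and the median difference was 0.28 in log2(TPM + 1), against 0.13 over all tested genes. Scaling each library by the median of its ratios to a common reference took the median of all tested genes to -0.02 and that of the members to 0.10, with 72 higher and 17 lower. Quantile normalization, which gives every library the same distribution, took the members' median to 0.010, with 47 higher and 42 lower. All WT_DEN libraries lay above all WT_Ctrl libraries for 54 members (60.7%), against 21.7% of tested genes, and below them for 0 members, against 3.21% of tested genes. None of these single differences passed the test: limma, with Benjamini-Hochberg adjustment over 12120 genes, called 0 members at an adjusted p of 0.05, where it called 0.132% of all genes. At an unadjusted p below 0.05 the count was 10 members up and 0 down, where 6.89% of tested genes were up and 1.37% down. Leaving S302A_DEN replicate 3 out of the shared model, which leaves these differences as they are, gave 0 members called up, against 1.93% of 11883 genes, and 44 up at an unadjusted p below 0.05, against 19.0%. The hepatocyte marker sum moved the same way, from 63810 to 94720 TPM in WT_Ctrl to between 108700 and 122000 TPM in WT_DEN, and its part in the members' difference was not tested.

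In TPM as deposited, each complex had mostly higher members. In complex I, 41 of 43 members were higher, with a median difference of 0.26, and the 7 catalytic core subunits, which carry the flavin and iron-sulfur clusters, were all higher with a median of 0.32. Ndufv1, the NADH-binding core subunit, had a mean of 79.6 ± 4.22 TPM in WT_Ctrl and 103 ± 4.82 TPM in WT_DEN. Ndufs1, the largest core subunit, had 47.9 ± 5.90 and 48.9 ± 2.65 TPM, so the core did not differ evenly. The 6 complex II members were all higher (median 0.27), as were the 8 of complex III (median 0.34). Complex IV had 14 of 15 higher (median 0.26) and complex V 16 of 17 (median 0.29). The 4 members lower in WT_DEN, picked out after their values were seen, were Atp5s, Cox7a1, Ndufa12 and Ndufaf7, with differences between -0.45 and -0.05.

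**Figure D3:**
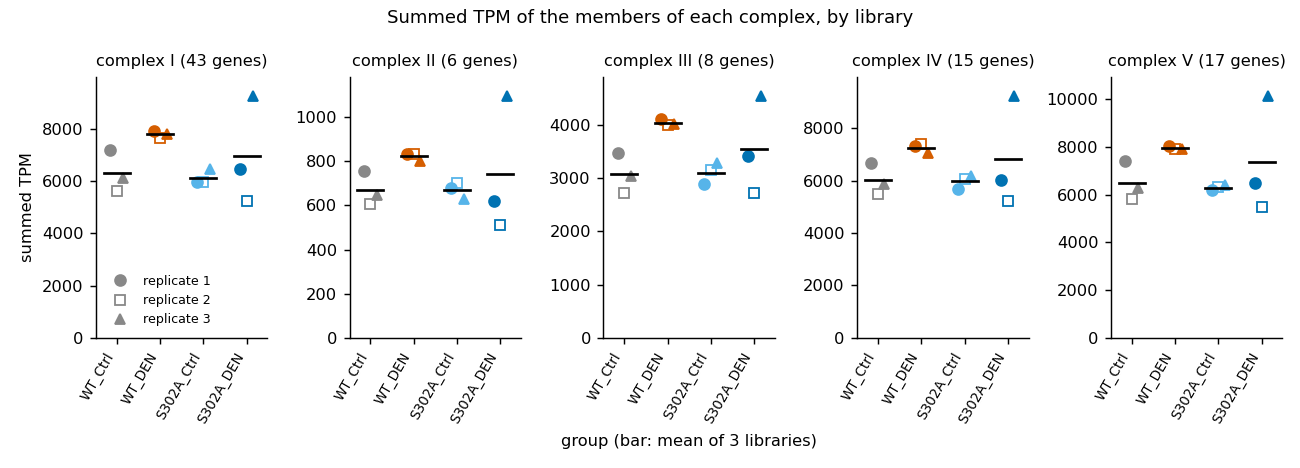
Summed TPM of the members of each complex in each library, with replicates as symbols and the mean of 3 libraries as a bar, on axes that start at 0. In TPM as deposited, in all 5 complexes the WT_DEN libraries lie above the WT_Ctrl libraries, and S302A_DEN replicate 3 is the highest library.

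The members with the smallest p for DEN in WT livers came from complexes I to IV. Sdhaf1, which protects the iron-sulfur subunit of complex II during assembly (ENSMUSG00000074211.4, chr7:30321406-30323895, minus strand, GENCODE M21 on mm10), had 14.3, 9.21 and 15.4 TPM in WT_Ctrl and 21.5, 21.7 and 23.5 TPM in WT_DEN. The groups were separate, and the difference was 0.77 ± 0.26 (log2, SE, adjusted p = 0.398 in limma). Ndufb8, an accessory subunit of the proton-pumping arm of complex I (chr19:44548572-44555440, minus strand), had 217, 154 and 183 TPM in WT_Ctrl and 277, 293 and 287 TPM in WT_DEN. Again no WT_Ctrl library reached the WT_DEN range, and the difference was 0.64 ± 0.23 (adjusted p = 0.452). In complex III, Uqcrq had 1020, 694 and 841 TPM in WT_Ctrl and 1294, 1162 and 1236 TPM in WT_DEN, a difference of 0.55 ± 0.21 (adjusted p = 0.477). Uqcr11, a further small subunit of complex III, averaged 426 ± 62.6 TPM and 615 ± 13.4 TPM, a difference of 0.54 ± 0.21. Cox6a1, the liver form of a subunit of the oxidase, averaged 482 ± 31.5 TPM and 662 ± 25.2 TPM, a difference of 0.46 ± 0.20. Its groups too were separate. Cox6b2 completed the list and is described with the S302A comparisons.

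Among the other complex IV subunits, the mean of Cox4i1, the regulatory subunit whose alternative form Cox4i2 was listed at 1, was 653 ± 62.5 TPM in WT_Ctrl and 819 ± 38.8 TPM in WT_DEN. Cox8a had 402 ± 28.6 and 567 ± 18.3 TPM, a difference of 0.49. Cox5a and Cox5b, which sit against the catalytic core on the matrix side, differed by 0.32 and 0.23, and their WT groups were separate. Cox6c, Cox7a2 and Cox7c differed by 0.19, 0.15 and 0.18, and their WT groups overlapped. Ndufa4, with 1090 ± 92.0 and 1300 ± 73.3 TPM, differed by 0.26. Cox7a2l, known for a role in joining complexes III and IV into supercomplexes, had 102 ± 13.5 TPM and 128 ± 7.86 TPM. Whether its product does so in these C57BL6 livers was not tested.

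In complex V the 5 F1 head subunits, which hold the catalytic sites, were all higher in each WT_DEN library than in any WT_Ctrl library. Atp5b, the catalytic beta subunit, had 537, 457 and 483 TPM in WT_Ctrl and 593, 611 and 594 TPM in WT_DEN. The gamma subunit Atp5c1, the rotating shaft, averaged 304 ± 38.4 and 374 ± 16.7 TPM, and the epsilon subunit Atp5e 610 ± 71.4 and 750 ± 32.6 TPM. The 3 c ring genes were separate as well. Atp5g1 differed by 0.41, Atp5g2 by 0.46 and Atp5g3 by 0.38. The 7 stalk and membrane subunits were all higher (median 0.25), but 2 of them had separate groups. In TPM as deposited, 21.7% of all tested genes were higher without overlap in this comparison. limma called 0 complex V members here.

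DEN in S302A livers gave a value that depended on replicate 3. The summed member TPM was 21410, 22213 and 22953 in S302A_Ctrl and 23022, 19203 and 34217 in S302A_DEN. The S302A_DEN libraries lay on both sides of the controls, with means of 22192 ± 772 and 25481 ± 7803 TPM (SD, n = 3 each), and of 21112 TPM for S302A_DEN without replicate 3. With all libraries, 77 members were higher and 12 lower, with a median difference of 0.18 against 0.27 over all tested genes. Without replicate 3, 26 were higher and 63 lower, with a median of -0.08 against 0.00. The direction also turned under both rescalings with all libraries kept. With median-of-ratios scaling the median of the members was -0.14 (15 higher, 74 lower) and that of all tested genes 0.0052, and with quantile normalization the members' median was -0.066 (28 higher, 61 lower). limma called 0 members where it called 0.619% of all genes, and at an unadjusted p below 0.05 the count was 3 up and 1 down, where 13.8% of tested genes were up and 2.53% down. Without replicate 3 it was 1 up and 9 down, against 8.37% and 8.63%. limma then called 0 members, where it called 145 of 11883 genes up and 144 down.

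A few members were separate between the S302A groups with or without replicate 3. With all libraries, 5 members were higher without overlap (15.8% of tested genes were) and 1 was lower (2.68% of tested genes). Without replicate 3 the counts were 5 higher, against 16.9% of tested genes, and 22 lower, against 15.4%. The 5 were Sdhaf1, Ndufa8, Uqcrh and, named after their values were seen, Ndufs4 and Sdhaf2. Sdhaf1 had 8.29, 17.0 and 13.4 TPM in S302A_Ctrl and 21.4, 20.7 and 23.7 TPM in S302A_DEN, a difference of 0.77 ± 0.26 (adjusted p = 0.186 in limma), or 0.72 ± 0.26 without replicate 3. Its difference was thus 0.77 under DEN in both genotypes, with all libraries. Ndufa8, an accessory subunit of complex I, had 136, 136 and 133 TPM in S302A_Ctrl and 179, 149 and 246 TPM in S302A_DEN, a difference of 0.47 ± 0.20 that was 0.27 ± 0.15 without replicate 3 (adjusted p = 0.384). Uqcrh, the hinge protein that helps cytochrome c dock on complex III, had 363, 365 and 378 TPM in S302A_Ctrl and 445, 407 and 655 TPM in S302A_DEN, a difference of 0.41 ± 0.19 that was 0.21 ± 0.11 without replicate 3 (adjusted p = 0.398). The next smallest p belonged to Ndufaf5 (0.51, or 0.18 without replicate 3) and Atp5g2 (0.42, or 0.18 without it), whose groups overlapped. Atp5g2 had 185, 183 and 210 TPM in S302A_Ctrl and 237, 200 and 360 TPM in S302A_DEN.

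In untreated livers the S302A and WT members lay close together. The summed TPM means were 22192 ± 772 in S302A_Ctrl and 22587 ± 2662 in WT_Ctrl, and 37 members were higher and 52 lower in S302A_Ctrl, with a median difference of -0.03 against -0.07 over all tested genes. That sign turned under rescaling, to a median of 0.06 with median-of-ratios scaling (64 higher, 25 lower) and 0.04 with quantile normalization (57 higher, 32 lower), and to 0.06 without WT_Ctrl replicate 1. limma called 0 members, against 0.0330% of all genes, and 0 had an unadjusted p below 0.05 in either direction, where 0.561% of tested genes were up and 0.916% down. S302A_Ctrl lay above WT_Ctrl without overlap for Cox6a1, Ndufab1 and Ndufc2, a count of 3 where 1.69% of tested genes did so, and below it for Ndufa8, Ndufaf5 and Uqcrh, a count of 3 where 5.27% did so. Ndufc2 was named after its values were seen. Ndufab1, the mitochondrial acyl carrier protein that also sits in complex I, had 200, 165 and 214 TPM in WT_Ctrl and 221, 232 and 219 TPM in S302A_Ctrl, a difference of 0.22 ± 0.23. Ndufaf5 had 2.74, 2.36 and 2.39 TPM in WT_Ctrl and 1.64, 2.21 and 1.60 TPM in S302A_Ctrl, levels near the lower end of the files. Atp5h, the d subunit of the ATP synthase stalk, had 661, 450 and 461 TPM in WT_Ctrl and 390, 509 and 459 TPM in S302A_Ctrl, and these ranges overlapped.

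Ndufs5, an accessory subunit of complex I (ENSMUSG00000028648.13, chr4:123712710-123718202, minus strand), had the largest difference in the untreated comparison, and it came from 1 library. It had 236, 87.2 and 170 TPM in WT_Ctrl and 152, 7.71 and 173 TPM in S302A_Ctrl, so replicate 2 was lowest in both groups. The difference was -1.31 ± 0.88 (adjusted p = 1 in limma), and without S302A_Ctrl replicate 2 it was 0.10. Replicate 2 was also the lowest library of the DEN groups, with 251, 222 and 248 TPM in WT_DEN and 186, 95.4 and 267 TPM in S302A_DEN. The labels do not say that libraries with the same number share anything.

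After DEN, most members had lower levels in the S302A than in the WT livers, and all 89 did without replicate 3. With all libraries, 16 members were higher and 73 lower in S302A_DEN than in WT_DEN, with a median difference of -0.17 against 0.07 over all tested genes. Without replicate 3, 0 were higher and 89 lower, with a median of -0.42 against -0.20 over all tested genes, so the tested genes as a whole were lower too. Without S302A_DEN replicate 2, the lowest library, the median was 0.024, so its sign rested on which S302A_DEN libraries were used. Under rescaling with all libraries it was -0.21 with median-of-ratios scaling (11 higher, 78 lower) and -0.05 with quantile normalization (28 higher, 61 lower). S302A_DEN replicates 1 and 2, with summed levels of 23022 and 19203 TPM, were below the lowest WT_DEN library at 27645 TPM, and replicate 3 at 34217 TPM was above the highest. The marker sums separated the same groups in every library. That of hepatocytes was 65360 to 85040 TPM in S302A_DEN and 108700 to 122000 TPM in WT_DEN. That of cholangiocytes, with only 2 of 6 markers above 1 TPM in at least 3 libraries, was 61.7 to 141 TPM and 22.1 to 31.3 TPM. The part of these marker sums in the members' difference was not tested. This comparison shares its WT_DEN libraries with the one for DEN in WT, and its S302A_DEN libraries with the one for DEN in S302A.

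limma called 0 members with all libraries, where it called 0.380% of all genes, and at an unadjusted p below 0.05 the count was 0 up and 1 down, where 2.93% of tested genes were up and 4.90% down. The WT_DEN and S302A_DEN libraries did not overlap for 7 members, all lower in S302A_DEN, where 6.19% of tested genes were lower without overlap, and for 0 members higher, where 3.23% were. Without replicate 3 the groups were separate for 82 of 89 members (92.1%), against 37.5% of tested genes. limma then called 9 members, all lower, where it called 5.30% of the 11883 genes left by the filter as lower, and 60 members were lower at an unadjusted p below 0.05, against 21.6% of those genes.

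The 9 members that fell in S302A_DEN without replicate 3 lay in complexes I, III, IV and V. Among the ATP synthase genes, Atp5g3 fell by 0.70 on the log2 scale (SE 0.12, adjusted p = 0.0134 in limma). It had 916, 893 and 890 TPM in WT_DEN and 597, 514 and 1035 TPM in S302A_DEN, where replicate 3 lay above every WT_DEN library. The alpha subunit Atp5a1 fell by 0.61, Atp5c1 by 0.54 and Atp5f1, the b subunit of the stator, by 0.51. In complex III, the core protein Uqcrc1 fell by 0.66 (SE 0.13, adjusted p = 0.0212) and the Rieske iron-sulfur protein Uqcrfs1 by 0.50. Uqcrc1 had 162, 174 and 175 TPM in WT_DEN and 119, 97.0 and 277 TPM in S302A_DEN, with replicate 3 again on the far side. In complex I, Ndufb6 fell by 0.50 and Ndufc1 by 0.48. Cox6b2 was the complex IV member. With all libraries, these 9 had differences between -1.98 and -0.12, and none was called.

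**Figure D4:**
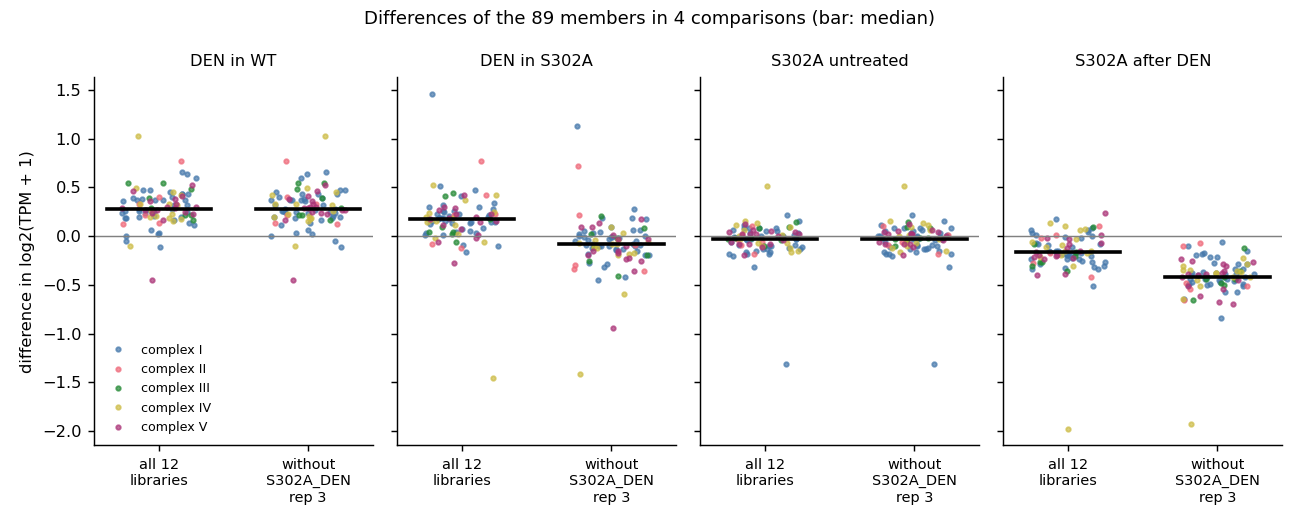
Differences in log2(TPM + 1) of the 89 members in 4 comparisons, coloured by complex, with all 12 libraries and without S302A_DEN replicate 3, and the median as a bar. The median for S302A after DEN is -0.17 with all libraries and -0.42 without replicate 3, while that for DEN in S302A is 0.18 and -0.08.

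For 7 members (7.87%) the S302A_DEN libraries stayed below the WT_DEN libraries with replicate 3 included. That share was near the 6.19% of all tested genes that did so. Uqcrb, a small subunit at the coenzyme Q site of complex III, had 718, 655 and 658 TPM in WT_DEN and 561, 497 and 585 TPM in S302A_DEN, a difference of -0.31 ± 0.16 (adjusted p = 0.71 in limma), or -0.36 ± 0.13 without replicate 3. Ndufv3, an accessory subunit of the NADH-oxidising part of complex I, had 289, 260 and 284 TPM in WT_DEN and 252, 207 and 210 TPM in S302A_DEN, a difference of -0.32 ± 0.17, or -0.28 ± 0.15 without replicate 3. Cox7c had 765, 791 and 703 TPM in WT_DEN and 645, 519 and 667 TPM in S302A_DEN, a difference of -0.31 ± 0.18, or -0.38 ± 0.15 without replicate 3. Among these, replicate 3 was still the highest S302A_DEN library for Uqcrb and Cox7c, and none passed the test. The others were Cox6b2, described below, Uqcrq, with 1018, 757 and 1132 TPM in S302A_DEN and a difference of -0.36 ± 0.21 (-0.49 ± 0.19 without replicate 3), and, named after their values were seen, Ndufa3 and Ndufa5.

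The 4 complex II subunits, which also serve the tricarboxylic acid cycle, showed how far replicate 3 set the group. Sdhb, the iron-sulfur subunit (chr4:140961203-140979193, plus strand), had 280, 195 and 246 TPM in WT_Ctrl, 289, 320 and 335 TPM in WT_DEN, 240, 276 and 252 TPM in S302A_Ctrl and 230, 173 and 327 TPM in S302A_DEN. Replicates 1 and 2 of S302A_DEN were below every WT_DEN library, and replicate 3 was within the WT_DEN range. The difference after DEN was -0.42 ± 0.23 (adjusted p = 0.732 in limma), and -0.65 ± 0.18 without replicate 3 (adjusted p = 0.0538). Sdhd, a membrane anchor, had 113, 96.4 and 313 TPM in S302A_DEN, where replicate 3 stood above all other libraries. Sdha, the flavin subunit, had 115, 99.9 and 185 TPM there and 170, 160 and 141 TPM in WT_DEN. Sdhc, the other anchor, had 129, 111 and 230 TPM and 177, 169 and 159 TPM. Without replicate 3 the median difference of the 4 subunits was -0.53, and that of the 2 assembly factors was -0.09.

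Uqcrc2 and Cox4i1, from the fixed set, had replicate 3 on the far side of WT_DEN. Uqcrc2, a core protein of complex III, had 181, 164 and 179 TPM in WT_DEN and 137, 120 and 229 TPM in S302A_DEN. Cox4i1 had 780, 858 and 818 TPM in WT_DEN and 690, 600 and 1242 TPM in S302A_DEN. In both, S302A_DEN replicates 1 and 2 were below all WT_DEN libraries and replicate 3 above them.

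Cox6b2 stood apart from the other members in the S302A livers. The gene (ENSMUSG00000051811.14, chr7:4751792-4753094, minus strand) had 11.04, 17.1 and 30.0 TPM in WT_Ctrl, 24.4, 45.8 and 46.8 TPM in WT_DEN, 31.0, 18.0 and 31.0 TPM in S302A_Ctrl and 5.93, 13.7 and 8.18 TPM in S302A_DEN. The S302A_DEN libraries, replicate 3 included, were below both the S302A_Ctrl and the WT_DEN libraries, while the WT groups overlapped. Group means were 19.4 ± 9.66, 39.0 ± 12.6, 26.7 ± 7.55 and 9.26 ± 3.98 TPM (SD, n = 3 each, in the order above). The difference was 1.03 ± 0.39 for DEN in WT (adjusted p = 0.477 in limma) and -1.46 ± 0.39 for DEN in S302A (adjusted p = 0.113), the latter -1.42 ± 0.45 without replicate 3. It was 0.51 ± 0.39 for S302A in untreated livers (adjusted p = 1) and -1.98 ± 0.39 for S302A after DEN (adjusted p = 0.0624). None of these passed the threshold with all libraries.

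The difference of S302A after DEN in Cox6b2 passed under some alternative settings. Its adjusted p was 0.033 without S302A_DEN replicate 3 and 0.0417 where genes had to reach 5 TPM in 3 libraries, a setting under which it was the 1 member called and 0.679% of 7806 genes were. Without S302A_DEN replicate 2 the DEN difference in S302A passed (adjusted p = 0.0484), again as the 1 member called, where 2.78% of 12067 genes were. Over all alternatives the difference after DEN stayed between -2.51 and -1.69, and its adjusted p between 4.3e-04 and 0.481.

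**Figure D5:**
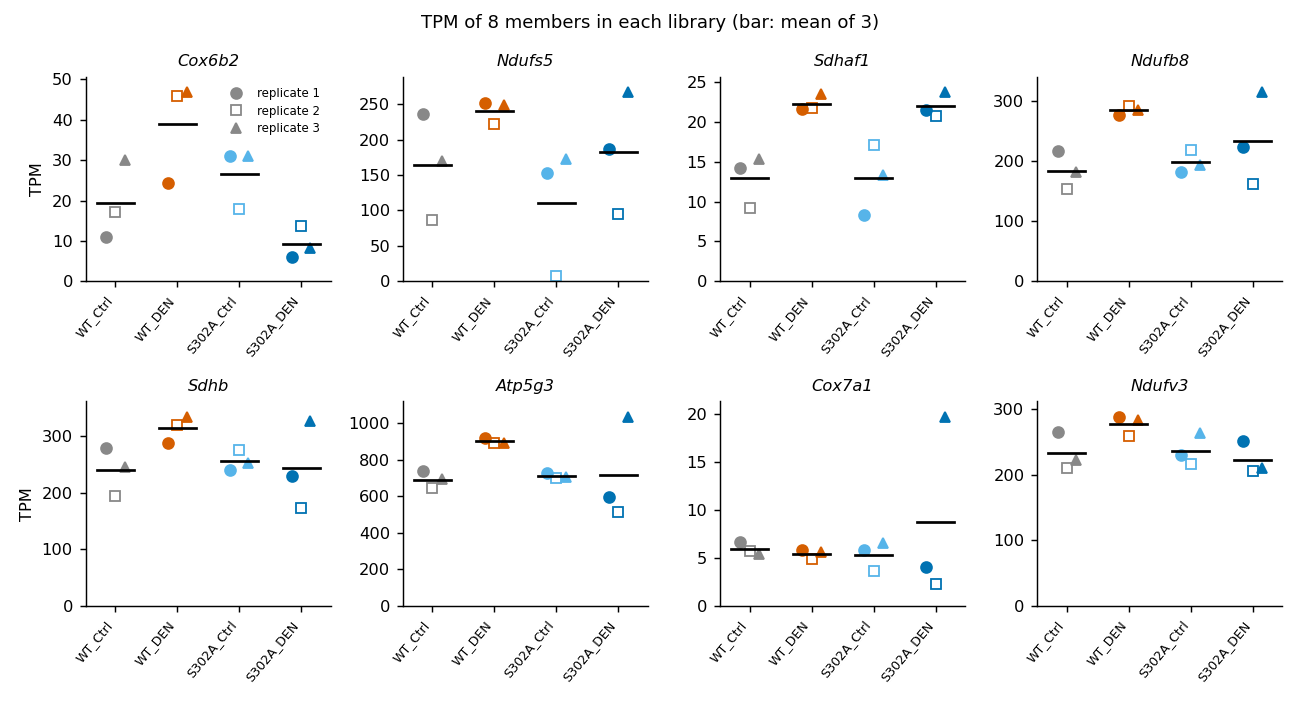
TPM of 8 members in each library, with replicates as symbols and the mean of 3 libraries as a bar, on axes that start at 0. The 3 S302A_DEN libraries of Cox6b2 (5.93 to 13.7 TPM) lie below its S302A_Ctrl and WT_DEN libraries, Sdhaf1 is above 20 TPM in all 6 DEN libraries, and Cox7a1 and Sdhb show S302A_DEN replicate 3 above its fellow replicates.

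The test of whether DEN acted differently in the 2 genotypes (the interaction) called 0 members, where it called 0.0413% of all genes, and at an unadjusted p below 0.05 the count was 0 up and 1 down, where 2.23% of tested genes were up and 2.83% down. That member was Cox6b2, with an interaction of -2.49 ± 0.56 (adjusted p = 0.273 in limma). Of the members, 26 had a positive and 63 a negative interaction, with a median of -0.14 against 0.14 over all tested genes. Without replicate 3 the counts were 4 and 85, the median was -0.37 against -0.13, and 33 members were negative at an unadjusted p below 0.05, against 11.7% of tested genes. Without replicate 2 of S302A_DEN the median was 0.05, and with all libraries it was below 0 under median-of-ratios scaling (-0.27) and quantile normalization (-0.07). After Cox6b2, the smallest p belonged to Sdhb (-0.52 ± 0.32), Uqcrq (-0.45 ± 0.30), Ndufv3 (-0.35 ± 0.24), Ndufb8 (-0.46 ± 0.33) and Ndufaf5 (0.49 ± 0.37), each with an adjusted p of 0.975. Without replicate 3 these were -0.76, -0.57, -0.31, -0.70 and 0.16, and none passed.

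A fit in which each library's weight was estimated from its spread gave S302A_DEN replicate 3 a weight of 0.0498 and called more members. For DEN in WT it called 41 members up, where 15.2% of all genes were called up. It called 1 down, Atp5s, a gene at 1.46 to 10.5 TPM in the 12 libraries. The share of all genes called down there is not given, so this call cannot be set against it. For S302A after DEN it called 36 members down, where 12.9% of all genes were called down. It called 3 members for DEN in S302A, where 13.3% of all genes were called, and these were Ndufa8 (0.37), Cox6b2 (-1.78) and Atp5s (-1.09). For the interaction it called Atp5g3 (-0.66), Cox6b2 (-2.74) and Uqcrc1 (-0.73), where 4.19% of all genes were called.

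The members varied together across libraries. The median SD of a member over 12 libraries was 0.279 in log2(TPM + 1), and 0.142 once each library was centred on the median of the members. For all tested genes, with each library centred on the median of all tested genes, the median SD went from 0.342 to 0.242. Without S302A_DEN replicate 3 it went from 0.218 to 0.122 for the members and from 0.244 to 0.204 for all tested genes. The values that follow use all 12 libraries unless stated. The centred SD was below 0.2 for 75 of 89 members and above 0.4 for 4. The least variable were Ndufs3, a core subunit of complex I (0.0634), Ndufb9 (0.0683) and Uqcrfs1 (0.0695). The 4 most variable were Ndufs5 (1.26), Cox6b2 (0.929), Atp5s (0.563) and Cox7a1 (0.465). Without S302A_DEN replicate 3 the centred SD was 0.312 for Cox7a1 and 0.419 for Sdhaf1, so the fourth place rested on that library. Cox7a1 had 4.09, 2.31 and 19.7 TPM in S302A_DEN and stayed between 3.61 and 6.63 TPM elsewhere.

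Other genes that serve the chain were read from lists by function. Of the 16 tested electron carriers and coenzyme Q genes, 13 were higher for DEN in WT, with a median of 0.27, and 13 were lower for S302A after DEN, with a median of -0.16. Of the 38 tested assembly factors outside the name rule, 32 were higher for DEN in WT, with a median of 0.22. None of these genes passed in limma in either comparison with all libraries. At an unadjusted p below 0.05 the carriers gave 1 up and 0 down for DEN in WT and 0 up and 2 down for S302A after DEN, and the assembly factors 4 up and 0 down, then 0 and 0. Without S302A_DEN replicate 3 all 16 carriers were lower for S302A after DEN (median -0.48), and limma called 5 of them, where 5.30% of genes were called down. Named for that result, they were Cyc1, Coq7 of coenzyme Q synthesis, and Etfa, Etfb and Etfdh, which pass electrons from fat oxidation to coenzyme Q, with differences between -0.78 and -0.53. Of the 38 assembly factors, 34 were then lower and 1, Coa5, was called (-0.59). Cyc1, the cytochrome c1 of complex III whose name falls outside the rule, had 143, 115 and 137 TPM in WT_Ctrl and 184, 190 and 193 TPM in WT_DEN, a difference of 0.52 ± 0.25 (adjusted p = 0.612). It had 150, 140 and 133 TPM in S302A_Ctrl and 141, 113 and 252 TPM in S302A_DEN, the shape seen in most members. Cycs, cytochrome c itself, had 59.0, 66.1 and 56.8 TPM in WT_Ctrl and 77.9, 68.1 and 72.8 TPM in WT_DEN.

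The regulators of mitochondrial gene expression showed no common direction for DEN in WT livers. Of 16 tested regulators, 7 were higher and 9 lower for DEN in WT, with a median of -0.01, and none passed in either direction, with 0 at an unadjusted p below 0.05. For S302A after DEN, 0 passed with all libraries, with 1 up and 1 down at an unadjusted p below 0.05, and 1 without replicate 3, Esrra (-0.69 ± 0.17, adjusted p = 0.0416). Ppargc1a, the coactivator PGC-1alpha, stayed between 1.00 and 2.11 TPM, at the floor of the files, and Nrf1 between 2.28 and 5.23 TPM. Gabpa, the ETS factor, had 10.4, 8.37 and 7.19 TPM in WT_DEN and 8.93, 8.51 and 9.79 TPM in WT_Ctrl, which overlap. Esrra, the receptor ERR alpha, had 10.03, 7.51 and 9.16 TPM in WT_Ctrl and 12.1, 10.8 and 11.99 TPM in WT_DEN, and Tfam, which packages and transcribes mitochondrial DNA, 13.3, 11.2 and 11.7 TPM and 14.4, 13.1 and 13.7 TPM. For Nrf1, Gabpa, Esrra and Tfam alike, S302A_DEN replicate 3 was the highest of the 12 libraries. An mRNA level says nothing of a factor's activity.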

How the data were processed

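Total liver RNA was sequenced (TruSeq libraries, HiSeq, per the labels). Per the submitters' processing notes, kallisto and mm10 were used, and the deposited values are TPM per gene symbol. No value was below 1, which was read as a floor, and library totals ran from 1016116 to 1018237. TPM keeps no read depth, so the depth and counting precision are unknown. Genes above 1 TPM in at least 3 of 12 libraries were tested as log2(TPM + 1) with limma 3.58.1 (R 4.3.3), in 1 model of 4 groups with a mean-variance trend and 8 residual degrees of freedom. Tests were two-sided, with Benjamini-Hochberg adjustment over 12120 genes, and were tested on simulated data. A fold change on this scale understates that of low genes. The 66 library pairs held no identical libraries. Of 18 same-numbered pairs across groups, 5 had correlated deviations over 0.1. Pairs with different numbers were not compared, so this cannot decide whether the numbers pair samples. The labels do not say that they do, and they were not taken to.

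Named members were those passing the test, the 6 with the smallest p per comparison, a fixed set of core subunits and isoforms, and each complex's extremes. The values of 1 gene of the fixed set are not reported here. The members and lists were chosen with earlier results of these data known. Alternatives covered the pseudocount, filter, scaling, library weights, replicate block, the libraries fitted and leaving out each library.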

Additional observations from a re-analysis of the deposited data

Results flagged for a closer look

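Cox6b2 was picked out by a rule that no other member met. Every DEN library had to lie above its own genotype's untreated mean in 1 genotype and below it in the other. Mean DEN differences of opposite sign were also seen in other members, such as Sdhb (0.40 in WT and -0.12 in S302A). The difference between genotypes was put to the interaction test. The rule asks for opposite signs in the same libraries as this test. The unadjusted p is therefore not independent of the choice of Cox6b2. Each S302A_DEN library was below each S302A_Ctrl library, while 2 of the 3 WT_DEN libraries were above each WT_Ctrl library. The interaction was -2.49 (unadjusted p = 0.000729, adjusted p = 0.273 in limma), so it did not pass over all tested genes. Leaving out S302A_DEN replicate 3 gave -2.44 (adjusted p = 0.107).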

How the results depend on the processing

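The number of members called stayed at 0 in all 5 comparisons under pseudocounts of 0.1 and 0.5, no filter and both rescalings. It was also 0 with the contrast's libraries alone, and in each comparison with the replicate block, whose numbers were not taken to pair samples. It became 1 for S302A after DEN with the filter at 5 TPM, and, with library weights, 42 for DEN in WT, 3 for DEN in S302A, 36 for S302A after DEN and 3 for the interaction. Leaving out 1 library at a time gave 0 to 1 members for DEN in S302A (1 without S302A_DEN replicate 2), 0 to 9 for S302A after DEN (9 without S302A_DEN replicate 3) and 0 in the others. The median difference then ranged from 0.22 to 0.39 for DEN in WT, from -0.084 to 0.36 for DEN in S302A, from -0.09 to 0.06 for S302A untreated, from -0.42 to 0.024 for S302A after DEN and from -0.37 to 0.05 for the interaction. It was -0.14 for DEN in S302A with median-of-ratios scaling and -0.10 with that scaling and S302A_DEN replicate 3 left out, a setting chosen after seeing the data, and 0.010 for DEN in WT with quantile normalization. Leaving out 1 library took Ndufs5 from -2.06 to 0.10 for S302A untreated and from -0.61 to 1.55 for the interaction, reversing both without S302A_Ctrl replicate 2. The cause of the changes under scaling and weights was not tested. TPM gives no depth, so counting error could not be set beside any value.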

Other observations

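Other mitochondrial and housekeeping lists were read in the same way, and none of their genes passed in limma in the 5 comparisons with all libraries. The 76 mitochondrial ribosomal protein genes had a median difference of 0.27 for DEN in WT, with 69 higher and 7 lower, and 0.34 for DEN in S302A, with 74 higher and 2 lower. Without S302A_DEN replicate 3 the DEN difference in S302A stayed above 0 for 60 of the 76, with a median of 0.15, where 26 of 89 respiratory chain members were higher. At an unadjusted p below 0.05 they gave 6 up and 0 down for DEN in WT and 20 up and 0 down for DEN in S302A, where 6.89% and 13.8% of tested genes were up. Without replicate 3 the latter count was 14 up and 1 down, against 8.37% and 8.63%, and Mrpl28 was called up for DEN in WT (0.57, where 1.93% of genes were called up). Mrps12, a protein of the small mitochondrial ribosomal subunit, differed by 0.64 ± 0.20 for DEN in WT (adjusted p = 0.334).

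The 18 tricarboxylic acid cycle genes had medians of 0.19 for DEN in WT and -0.01 for S302A after DEN, and 0 of 18 were higher in S302A_DEN without replicate 3, with a median of -0.48. Without that library limma called 6 of the 18 lower (among them Dlst, Idh2, Pcx, Suclg1 and Suclg2, between -0.84 and -0.53), where 5.30% of genes were called lower. The 23 genes of the outer membrane, import and carriers had medians of 0.20 and 0.09, and the latter was -0.31 without replicate 3, where Slc25a5 (-0.74) and Vdac1 (-0.68) were called lower. The 94 cytosolic ribosomal protein genes had medians of 0.18 for DEN in WT and 0.56 for DEN in S302A, which was 0.20 without replicate 3. The 38 proteasome genes had medians of 0.14 and 0.38, and the latter was 0.14 without replicate 3.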
